A study of Mus musculus with 8 samples.

Results

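Nuclear pore complexes are the channels in the nuclear envelope through which proteins, ribosomal subunits and mRNA pass between nucleus and cytoplasm. Each is an assembly of many copies of a limited set of proteins, the nucleoporins: Y complexes form the outer rings, an inner ring lines the pore, membrane proteins anchor it, phenylalanine-glycine repeats fill the central channel, and filaments and a basket extend to the cytoplasmic and the nuclear side. New pores are built both when the envelope reforms after mitosis and during interphase while the nucleus grows. The genes described here are the 30 protein-coding genes, of 50686 gene IDs in the count table, whose GENCODE M21 symbol is Nup followed by a number, or which are named Tpr, Pom121, Ndc1, Aaas, Rae1, Sec13, Seh1l, Ranbp2, Nupl1 or Nupl2. The selection leaves out Ahctf1, whose product ELYS attaches pores to chromatin, and Nup62cl, a relative of Nup62.

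RNA was sequenced from blood-forming (hematopoietic) stem cells, HSCs, sorted from the marrow of C57BL/6J mice. No genetic change or treatment is named for these animals. Per the labels, the marrow had been depleted of lineage-positive cells, CD150, CD48, Sca-1 and CD117 (Kit) were the antigens stained, and 10000 cells in G0/1 went into each library. The Large group held the 10% largest cells by scatter, the Medium group the cells within 10% of the mean size, the Small group the 10% smallest cells, and the All group was not separated by size. Each of the 4 groups had 2 libraries, numbered 1 and 2 in the labels, with total counts of 15138852 and 15585024 in Large, 15298376 and 15742594 in Medium, 15896952 and 13698362 in Small, and 14745907 and 16838448 in All. Whether the libraries of a group came from separate animals is not stated in the labels, so the p-values speak only to the spread between samples, part or all of which may be technical. Samples of drug-treated mice named in the series design were not analysed here.

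Replicate number was the main divide among the libraries: principal component 1, with 39.5% of the variance, placed all 4 libraries numbered 1 below those numbered 2. For this reason each comparison is given within number 1 and within number 2 as well as over all libraries. The genes of the 4 sort antigens (Slamf1, Cd48, Ly6a and Kit) had reads in every library, from 7.58 CPM for Slamf1 in Large 1 to 1196 CPM for Kit in Small 2. Within each number Cd48 was highest in Large, and Ly6a and Kit were lowest there. Cd48 had 159 and 105 CPM in Large, 76.8 and 66.1 CPM in Medium, 136 and 62.7 CPM in Small, and 67.4 and 12.0 CPM in All. In Large, Ly6a had 20.4 and 186 CPM and Kit 513 and 699 CPM. These reads do not measure the purity of the sort, which was not tested. CPM are counts divided by the library's total in units of 1000000 and scaled between libraries by the TMM method, so each value is a share of its own library. RNA per cell was not measured, and in bulk RNA fewer cells of a type and less RNA per cell cannot be told apart.

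All 30 nuclear pore genes passed the filter on low counts. On the TPM scale (a share of the library's transcripts, which corrects for transcript length), Sec13 had the highest level, with a mean of 202 TPM over the 8 libraries, followed by Nup85 with 158 and Rae1 with 151 TPM. Pom121 (14.1), Nupl2 (14.7) and Nup188 (14.8 TPM) were among the lowest. Nup210l, a relative of Nup210 known for its expression in testis, averaged 0.190 TPM and had only 5 to 24 reads per library, so its values rest on few reads. Together the 30 genes took 4270 and 3462 CPM in Large, 3069 and 2265 CPM in Medium, 3697 and 2736 CPM in Small, and 3212 and 2320 CPM in All. Large had the highest sum within each number and Medium the lowest.

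The set as a whole stood highest in Large and, among the size gates, lowest in Medium. By mean CPM, 21 of the 30 genes were highest in Large, against 4496 of the 16066 tested genes, and 26 were lowest in Medium among the 3 size gates, against 32.3% of all tested genes. By these means the order Large, Small, Medium, from high to low, held for 19 of the 30 genes, against 17.0% of all tested genes. The place of Medium below Small varied with the libraries used. The median log2 difference, Medium minus Small, was -0.23, with -0.31 within number 1 and -0.18 within number 2. It was 0.12 without Small 1 and -0.04 without Medium 2. Those fits had no replicate block, so the replicate numbers were uneven between the groups. Between the replicate numbers 11 of the 30 genes differed in sign. Tpr was lowest in Small, and Nup210 and Pom121 were highest there.

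**Figure D1:**
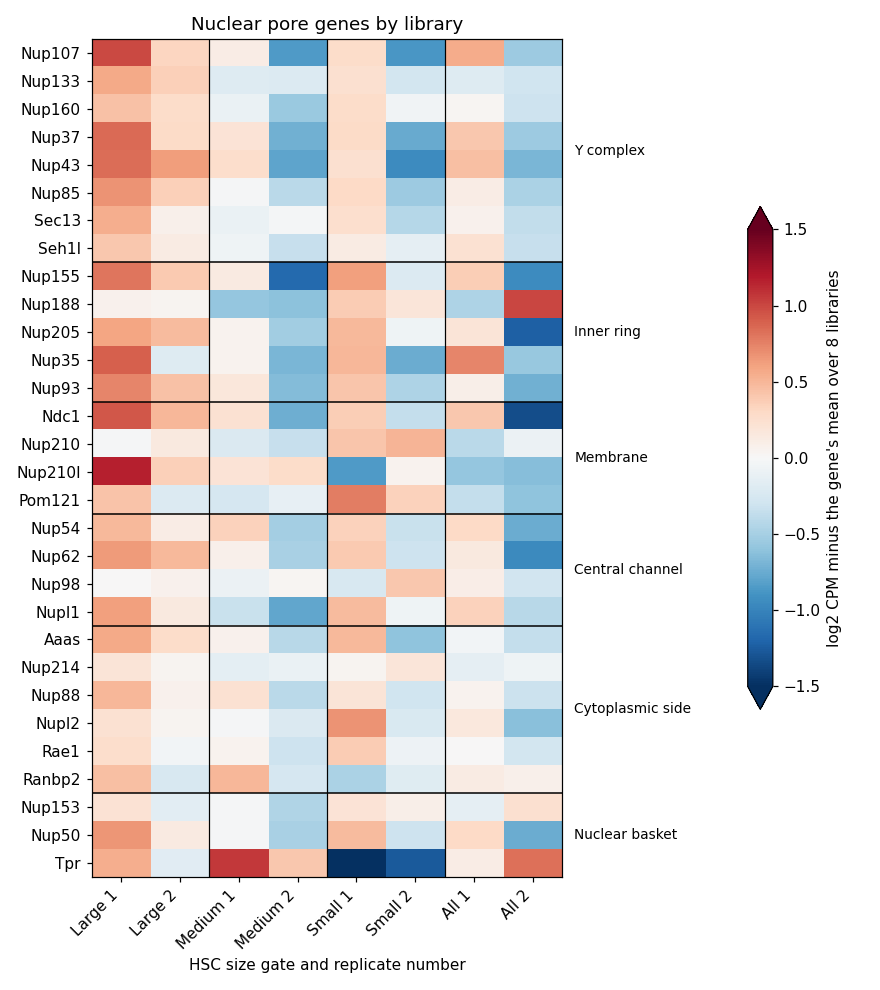
Relative abundance of the 30 nuclear pore genes (rows, by structural group) in the 8 libraries (columns; Large, Medium, Small and All, replicate numbers 1 and 2). Colour gives log2 CPM minus the gene's mean over the 8 libraries; most rows are darkest red in Large 1 and blue in Medium 2, and Tpr is darkest blue in both Small libraries.

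Most nuclear pore genes were higher in Large than in Medium. Within both numbers 27 of 30 genes were higher in Large (32.9% of all tested genes were) and Tpr alone was lower (33.4% of all tested genes were). For 21 genes both Large libraries lay above both Medium libraries, against 18.3% of all tested genes, and for none did both lie below, against 17.3%. The median fitted log2 difference was 0.65 over the 30 genes, 0.56 within number 1 and 0.59 within number 2, and -0.01 over all tested genes. It was 0.41 without Large 1 and 0.38 without Medium 2. On the length-corrected log2(TPM + 1) scale 20 genes were higher and 3 lower in Large within both numbers, and the median was 0.42. No member and no other gene passed edgeR's quasi-likelihood test at an adjusted p of 0.05 (called: 0% of 16066 genes). At an unadjusted p under 0.05 edgeR placed 3 members higher (Nup133, Nup160 and Nupl1), against 0.878% of all tested genes. When edgeR took the replicate number as a block the adjusted count was still 0 of 30 (0% of all genes), with a smallest adjusted p of 0.138 among the members. In that fit 18 members were higher in Large at an unadjusted p under 0.05, against 8.18% of all tested genes, and none was lower, against 6.64%. DESeq2 with the same block, added after the data were seen, called 13 members at an adjusted p under 0.05, all higher in Large, against 5.74% of all tested genes. DESeq2 without the block called no member (0.0124% of all tested genes), nor did edgeR with the block and GC and length trends removed (0.0687%).

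Against Small, the Large group was also mostly higher, by less. Within both numbers 21 of 30 genes were higher in Large (32.9% of all tested genes) and Nup188, Nup210 and Pom121 were lower (30.9%). Both Large libraries lay above both Small libraries for 10 genes (17.7% of all tested genes) and below them for Nup188 and Nup210 (14.7%). The median log2 difference was 0.34, with 0.25 within number 1 and 0.44 within number 2, against 0.00 over all tested genes. It was 0.12 without Large 1, 0.53 without Large 2, 0.69 without Small 1 and 0.09 without Small 2, and 0.21 on log2(TPM + 1). No gene passed edgeR's test at an adjusted p of 0.05 (0% of all tested genes), and Tpr alone had an unadjusted p under 0.05 in edgeR, against 1.77% of all tested genes in that direction and 1.38% in the other. With the replicate block, edgeR gave 10 members higher and Nup210 lower at an unadjusted p under 0.05 (9.44% and 7.94% of all tested genes), and a smallest adjusted p of 0.0654 among the members, for Nup107. DESeq2 with the block called Nup107, Nup37, Nup43, Nup85, Nup93 and Tpr higher in Large and Nup210 lower, 7 members in all, against 8.81% of all tested genes. DESeq2 without the block called none (0.0622% of all tested genes), and limma-voom with the block called Nup107 (1.28%).

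In Medium against Small, within both numbers 3 genes were higher in Medium (Nup43, Nup210l and Tpr; 30.6% of all tested genes) and 16 were lower (29.3%). Both Medium libraries lay above both Small libraries for Nup210l and Tpr (16.8%) and below them for 7 genes (14.3%). The median log2 difference was -0.23, with -0.31 within number 1 and -0.18 within number 2, against -0.01 over all tested genes. It was -0.57 without Medium 1, -0.04 without Medium 2, 0.12 without Small 1 and -0.52 without Small 2. No gene passed edgeR's test at an adjusted p of 0.05 (0%), Tpr was higher at an unadjusted p under 0.05 (2.81% of all tested genes), and Nup210 and Pom121 were lower (1.52%). With the replicate block, edgeR gave 1 member higher (6.11%) and 6 lower (6.39%) at an unadjusted p under 0.05. DESeq2 with the block called Tpr higher and Nup210 and Nupl1 lower in Medium, against 3.22% of all tested genes called.

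**Figure D2:**
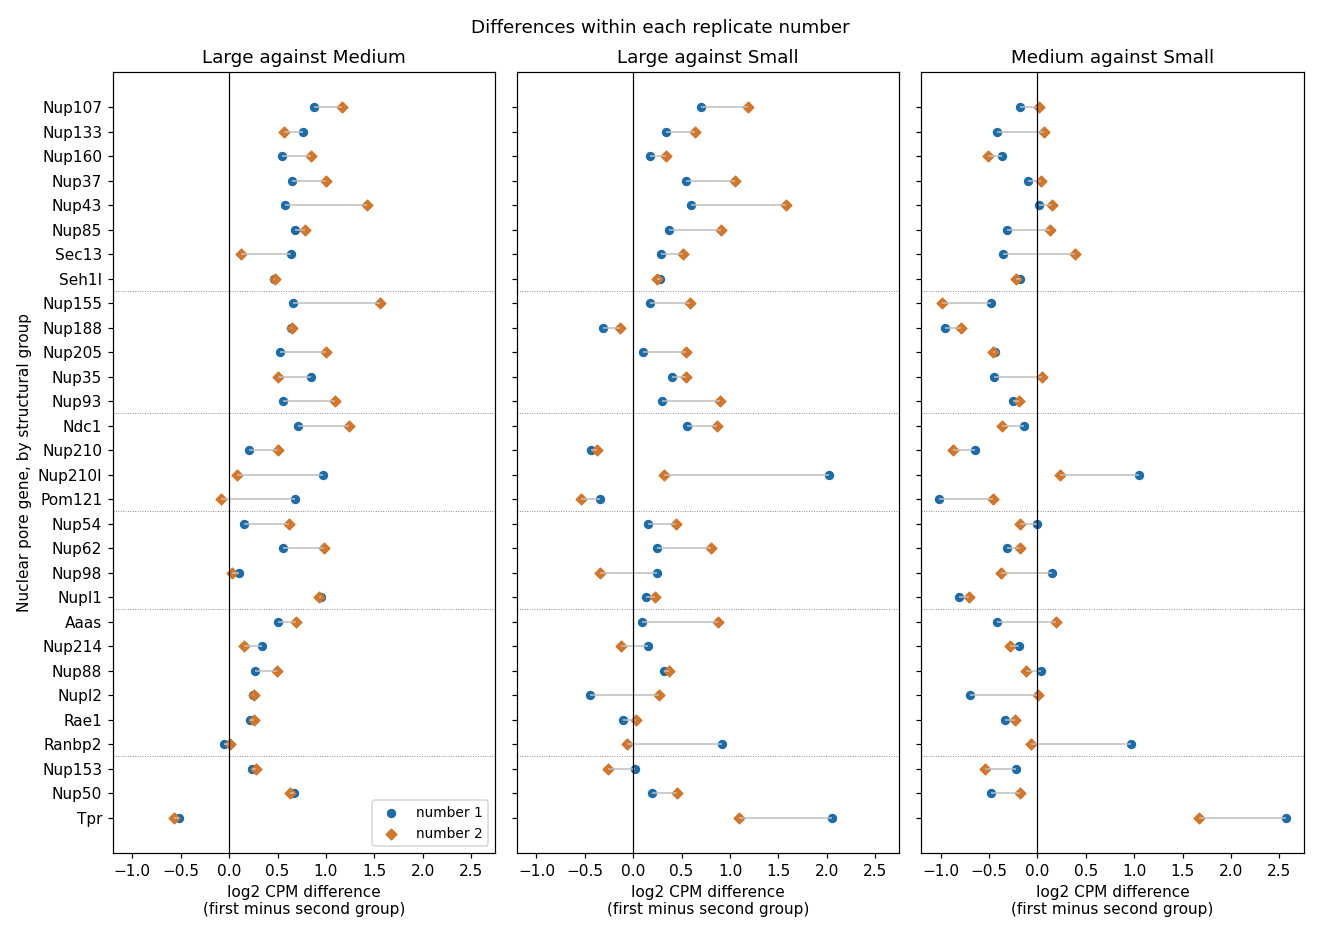
Log2 CPM differences of the 30 nuclear pore genes within replicate number 1 (circles) and within number 2 (diamonds), for Large against Medium, Large against Small and Medium against Small, with genes ordered by structural group. In Large against Medium 27 genes have both symbols right of 0; Tpr lies left of 0 there and far to the right in the comparisons with Small.

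The list for the Y complex, the scaffold of the outer rings, held 8 genes. It left out Nup98, which also encodes the Y complex subunit Nup96 and was counted with the central channel. Nup98 overlapped in Large against Medium (log2 0.07) and in Large against Small (-0.08). For each of the 8 listed genes both Large libraries lay above both Medium libraries (18.3% of all tested genes). The median of their log2 differences was 0.70 (0.65 in number 1 and 0.81 in number 2). Against Small all 8 were higher in Large within both numbers, with a median of 0.53 (0.35 and 0.77), and for 5 the Large libraries both lay above the Small ones (17.7% of all tested genes). Between Medium and Small the median was -0.13, with -0.25 within number 1 and 0.06 within number 2.

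Nup107 (chr10:117750621-117792705, mm10), a subunit of the stem of the Y, had 263 and 166 CPM in Large, 143 and 73.5 CPM in Medium, 161 and 72.7 CPM in Small, and 196 and 90.6 CPM in All. Both Large libraries lay above all Medium and Small libraries, and All 1 lay above Large 2. The log2 difference was 0.99 (SE 0.56) in Large against Medium and 0.87 (SE 0.56) in Large against Small, with edgeR adjusted p of 0.989 and 0.975. DESeq2 with the replicate block gave Large against Small an adjusted p of 1.02e-05 for Nup107, and limma-voom with the block 0.0344. Nup133, a membrane-sensing subunit at the stem's end, had 110 and 94.8 CPM in Large, 64.9 and 64.0 CPM in Medium, 87.1 and 60.9 CPM in Small, and 64.8 and 59.8 CPM in All. Its Large libraries lay above the other 6, by 0.67 (SE 0.23; edgeR unadjusted p = 0.0247, adjusted p = 0.989) against Medium, 0.47 (SE 0.23) against Small and 0.72 (SE 0.23; edgeR unadjusted p = 0.0185, adjusted p = 0.885) against All. Exons of Gm29773 and Gm45890 on the opposite strand cover 10.4% of the exonic bases of Nup133, and whether counting used strand is not known.

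Nup160, on an arm of the Y, had 158 and 142 CPM in Large, 108 and 78.8 CPM in Medium, 140 and 112 CPM in Small, and 119 and 93.8 CPM in All. The groups Large, Small and Medium did not overlap, in that descending order, and the log2 difference was 0.68 (SE 0.25) in Large against Medium, 0.25 (SE 0.25) in Large against Small and -0.43 (SE 0.25) in Medium against Small. Nup85, on the other arm, had 259 and 210 CPM in Large, 161 and 122 CPM in Medium, 201 and 112 CPM in Small, and 176 and 118 CPM in All. Its Large libraries lay above all others, by a log2 difference of 0.73 (SE 0.35) against Medium and 0.59 (SE 0.35) against Small. Nup43, a small beta-propeller protein that binds Nup85, had 49.3 and 42.7 CPM in Large, 32.9 and 15.8 CPM in Medium, 32.5 and 14.2 CPM in Small, and 37.5 and 17.1 CPM in All. Again both Large libraries were above the other 6, and the difference was wider within number 2 (1.42 against Medium, 1.58 against Small) than within number 1 (0.58 and 0.60).

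Sec13 and Seh1l encode beta-propeller subunits that also serve outside the pore, Sec13 in the COPII coat of secretory vesicles and both in the GATOR2 complex upstream of mTORC1. Sec13 had 259 and 189 CPM in Large, 166 and 174 CPM in Medium, 211 and 133 CPM in Small, and 186 and 138 CPM in All. Large lay above Medium (log2 0.40, SE 0.30) and overlapped Small (0.38, SE 0.30). Seh1l had 237 and 195 CPM in Large, 172 and 140 CPM in Medium, 195 and 164 CPM in Small, and 210 and 141 CPM in All. It too separated Large from Medium (log2 0.47, SE 0.26) but not from Small. Nup37, the last of the listed Y complex genes, ranged from 29.8 CPM in Small 2 to 91.3 CPM in Large 1. It was higher in Large than in Medium by 0.65 and 1.00, and than in Small by 0.55 and 1.05, within numbers 1 and 2.

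The 5 genes of the inner ring, the scaffold that lines the pore's waist, had a median of 0.74 in Large against Medium (0.64 in number 1 and 1.00 in number 2). In Large against Small the median was 0.34 (0.17 and 0.55), and in Medium against Small it was -0.44 (-0.45 and -0.46). Nup93, the linker that holds the ring together, had 213 and 174 CPM in Large, 145 and 81.9 CPM in Medium, 173 and 93.5 CPM in Small, and 137 and 78.1 CPM in All. Its Large libraries lay above all others, narrowly so for Large 2 and Small 1, and the log2 difference was 0.77 (SE 0.43) against Medium, 0.54 (SE 0.43) against Small and 0.85 (SE 0.43) against All. Nup205, a large scaffold subunit, had 183 and 170 CPM in Large, 126 and 85.2 CPM in Medium, 171 and 117 CPM in Small, and 139 and 52.0 CPM in All. Large lay above Medium (log2 0.74, SE 0.46) and overlapped Small (0.30, SE 0.46). Nup155, which contacts the pore membrane, showed the widest gap between Large and Medium within number 2 (1.56, against 0.66 within number 1), over a range of 34.2 CPM in Medium 2 to 134 CPM in Large 1.

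Nup188, the paralog of Nup205, had 39.0 and 38.3 CPM in Large, 25.0 and 24.3 CPM in Medium, 48.5 and 42.1 CPM in Small, and 27.0 and 75.0 CPM in All. The 3 size gates were separated from each other with Small highest, and All 1 and All 2 lay far apart. The log2 difference was 0.65 (SE 0.45) in Large against Medium, -0.23 (SE 0.44) in Large against Small, -0.88 (SE 0.45) in Medium against Small and -1.05 (SE 0.45) in Medium against All. After trends with GC content and length were removed, Large against Small became 0.12 and 0.16 within numbers 1 and 2 for Nup188, in place of -0.31 and -0.14. Exons of other genes cover 12.4% of its exonic bases, and the sources do not say whether counting used strand. Nup35, which binds membrane, had 63.1 and 29.6 CPM in Large, 35.0 and 20.9 CPM in Medium, 47.7 and 20.2 CPM in Small, and 56.2 and 22.7 CPM in All. In each group its library numbered 1 was higher, and all groups overlapped. Medium against All was -0.50 (SE 0.63), and without All 1 it was 0.35.

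The 4 genes of the membrane nucleoporins differed among themselves. In Large against Small their median was 0.14, with 0.11 within number 1 and -0.02 within number 2, and in Large against Medium it was 0.50 (0.69 and 0.29). Ndc1, which anchors scaffold subunits in the envelope, ranged from 54.9 CPM in All 2 to 265 CPM in Large 1, its Large libraries lay above all others, and it was higher in Large than in Medium by 0.71 and 1.24 and than in Small by 0.56 and 0.87 within numbers 1 and 2.

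Nup210 (chr6:91013068-91116829), a glycoprotein with most of its mass in the lumen of the envelope, was the most abundant member by CPM and was highest in Small. It had 341 and 385 CPM in Large, 298 and 272 CPM in Medium, 465 and 496 CPM in Small, and 264 and 326 CPM in All. Small was separated upward from each of the other groups, and the libraries within a group lay close together. The log2 difference was -0.75 (SE 0.19; edgeR unadjusted p = 0.00537) in Medium against Small, -0.40 (SE 0.19; edgeR unadjusted p = 0.0701) in Large against Small and 0.70 (SE 0.19; edgeR unadjusted p = 0.00747) in Small against All, and none passed when adjusted (edgeR adjusted p = 1.00, 0.975 and 1.00). DESeq2 with the replicate block called all 3. On the TPM scale Nup210 had 69.4 and 89.0 TPM in Large, 76.6 and 72.1 TPM in Medium, 133 and 158 TPM in Small, and 69.4 and 101 TPM in All, again with Small apart. The size of the Large against Small difference depended on the scale: with trends in GC content and length removed it was 0.03 and 0.01 within numbers 1 and 2, and on log2(TPM + 1) it was -0.93 and -0.82. With the trends removed Medium against Small was -0.56 in each number. The longest annotated transcript of Nup210 has 7037 bases and 55.0% GC.

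Pom121, which takes part in building pores during interphase, had 70.8 and 45.8 CPM in Large, 44.3 and 48.4 CPM in Medium, 89.7 and 66.6 CPM in Small, and 40.9 and 34.7 CPM in All. Small lay above Medium and All, and Large overlapped Medium and Small. The log2 difference was -0.75 (SE 0.29; edgeR unadjusted p = 0.0347, adjusted p = 1.00) in Medium against Small, 1.05 (SE 0.29; edgeR unadjusted p = 0.00863, adjusted p = 1.00) in Small against All, and 0.63 (SE 0.29) in Large against All. In Large against Small it was -0.34 and -0.54 within numbers 1 and 2, and 0.20 and -0.14 with GC and length trends removed. Nsun5 exons on the opposite strand cover 11.9% of the exonic bases of Pom121. Nup210l had 1.72 and 0.921 CPM in Large, 0.813 and 0.862 CPM in Medium, 0.324 and 0.714 CPM in Small, and 0.418 and 0.394 CPM in All. Its log2 differences had standard errors near their size, as in Large against Small (1.33, SE 1.00) and Medium against All (1.03, SE 1.00).

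**Figure D3:**
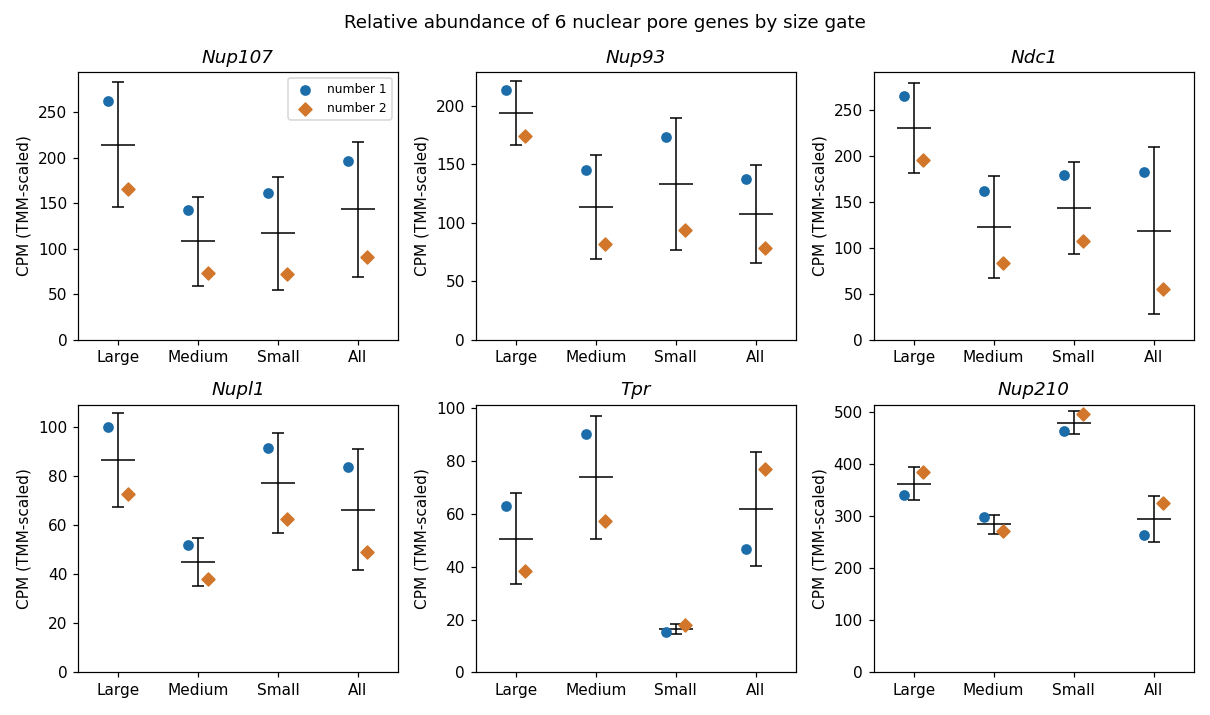
CPM of Nup107, Nup93, Ndc1, Nupl1, Tpr and Nup210 in Large, Medium, Small and All (circles, number 1; diamonds, number 2; horizontal bars, group means; error bars, SD, n = 2). Nup107, Nup93 and Ndc1 are highest in Large, Nupl1 is lowest in Medium, Tpr is lowest in Small at 15.1 and 17.9 CPM, and Nup210 is highest in Small at 465 and 496 CPM.

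Of the central channel genes, Nup62 and Nupl1 (the older symbol of Nup58) encode subunits of the repeat-bearing channel complex together with Nup54. Nup62 had 243 and 218 CPM in Large, 165 and 111 CPM in Medium, 204 and 125 CPM in Small, and 172 and 80.4 CPM in All. The Large libraries lay above the other 6, with a log2 difference of 0.75 (SE 0.42) against Medium, 0.49 (SE 0.42) against Small and 0.87 (SE 0.42) against All. Nupl1 had 100 and 72.9 CPM in Large, 51.9 and 38.2 CPM in Medium, 91.4 and 62.6 CPM in Small, and 83.7 and 48.9 CPM in All. Medium lay below both Large and Small without overlap, and the log2 difference was 0.94 (SE 0.36; edgeR unadjusted p = 0.0344, adjusted p = 0.989) in Large against Medium, -0.77 (SE 0.36) in Medium against Small, and 0.17 (SE 0.35) in Large against Small. Exons of other annotated genes on the same strand, among them Atp8a2, cover 55.4% of the exonic bases of Nupl1, so its reads may have been divided between genes and its values are uncertain. Nup54 was higher in Large than in Medium by 0.15 and 0.62 within numbers 1 and 2. Nup98, whose transcript also encodes the Y complex subunit Nup96, was nearly level between Large and Medium (0.10 and 0.03), and its sign in Large against Small differed between the numbers (0.25 and -0.34).

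The 6 genes of the cytoplasmic side, where exported mRNA is released and remodelled, had a median of 0.25 in Large against Medium (0.26 and 0.26 within numbers 1 and 2) and 0.17 in Large against Small (0.12 and 0.15). Rae1, an mRNA export factor that binds Nup98, had 186 and 150 CPM in Large, 160 and 125 CPM in Medium, 201 and 147 CPM in Small, and 156 and 128 CPM in All. Large and Small overlapped (log2 -0.05, SE 0.25), and the sign turned without Large 2 (0.09) or without Small 1 (0.19). Nup214, the anchor of the export helicase, was the most even member, with a ratio of 1.27 between its highest and lowest library: it had 114 and 103 CPM in Large, 89.8 and 92.7 CPM in Medium, 102 and 112 CPM in Small, and 90.3 and 95.1 CPM in All. Small against All was 0.21 (SE 0.18) for Nup214 on counts and -0.15 on log2(TPM + 1).

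Ranbp2, the SUMO ligase of the cytoplasmic filaments, had 110 and 68.2 CPM in Large, 114 and 67.5 CPM in Medium, 57.9 and 70.9 CPM in Small, and 87.8 and 85.4 CPM in All. Only Small and All were separated (log2 -0.43, SE 0.33), and Large against Small was 0.92 within number 1 and -0.06 within number 2. Nup88, a partner of Nup214, was higher in Large than in Small by 0.32 and 0.37, and Aaas, which is bound to Ndc1, by 0.09 and 0.88. Nupl2 (the older symbol of Nup42) was higher in Large than in Medium by 0.25 and 0.26, and differed in sign between the numbers in Large against Small (-0.45 and 0.27).

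Tpr (chr1:150392838-150449935), the main architectural protein of the nuclear basket, had 62.8 and 38.4 CPM in Large, 90.3 and 57.2 CPM in Medium, 15.1 and 17.9 CPM in Small, and 46.6 and 77.1 CPM in All. Both Small libraries lay below the other 6, and the remaining groups overlapped each other. The log2 difference was 1.62 (SE 0.39; edgeR unadjusted p = 0.00473, adjusted p = 0.975) in Large against Small, 2.16 (SE 0.40; edgeR unadjusted p = 0.00107, adjusted p = 1.00) in Medium against Small, and -1.91 (SE 0.40; edgeR unadjusted p = 0.00206, adjusted p = 1.00) in Small against All. These were the smallest unadjusted p among the members in all 3 comparisons. Without the filter on low counts edgeR called Tpr in all 3, with adjusted p of 0.0155, 2.93e-05 and 0.000962. That fit tested 28543 genes and called 0.193%, 0.256% and 0.242% of them. DESeq2 without the block called Tpr in Medium against Small (adjusted p = 0.00244) and Small against All (adjusted p = 0.0357), and not in Large against Small (adjusted p = 0.212). Of all tested genes DESeq2 called 0.261%, 0.124% and 0.0622% in these comparisons, in that order.

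The longest annotated Tpr transcript has 7480 bases. Tpr averaged 50.7 CPM and 48.0 TPM, against 85.3 CPM and 18.7 TPM for Nup155, whose longest transcript has 7832 bases. The TPM of Tpr thus rest on a shorter length than its longest transcript. The trend removal used the longest transcript of each gene, so it does not cover that shorter length. Removing trends with GC content and length left Tpr at 1.95 and 1.11 in Large against Small and at 2.26 and 1.65 in Medium against Small within numbers 1 and 2. On log2(TPM + 1), Tpr had 1.52 and 0.53 in Large against Small within the numbers, and 1.03 over all libraries by limma-trend, in place of 1.62. Nup155, Ranbp2 and Nup210, whose longest annotated transcripts are also long, differed from each other in Large against Small. Nup155 had 0.17 and 0.59, Ranbp2 0.92 and -0.06, and Nup210 -0.44 and -0.37. Over the 30 members, the length of the longest transcript was set against the Large against Small difference. Spearman's correlation was -0.07 within number 1 and -0.44 within number 2, against -0.08 and -0.20 over the 16017 tested genes with a length. Of the other basket genes, Nup153 had 88.6 and 67.9 CPM in Large, 74.7 and 55.7 CPM in Medium, 87.3 and 81.1 CPM in Small, and 69.7 and 89.9 CPM in All. Medium lay below Small (log2 -0.37, SE 0.25) and the other groups overlapped, as in Medium against All (-0.29, SE 0.25). Nup50, which binds importin alpha, was higher in Large than in Medium by 0.67 and 0.63 and than in Small by 0.19 and 0.45 within numbers 1 and 2.

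Against the unfractionated cells, the Large group was again higher. Within both numbers 25 of 30 genes were higher in Large than in All and none was lower (31.2% and 32.6% of all tested genes), and for 16 both Large libraries lay above both All libraries (15.8%). The median log2 difference was 0.48 (0.42 and 0.61 within numbers 1 and 2; -0.03 over all tested genes). It was 0.26 without Large 1, 0.26 without All 2 and 0.81 without All 1. No gene passed edgeR's test at an adjusted p of 0.05 (0%), and 1 member, Nup133, was higher at an unadjusted p under 0.05 (1.34% of all tested genes), and none was lower (1.80%). With the replicate block, edgeR gave 20 members an unadjusted p under 0.05 in the direction of Large (10.7%) and a smallest adjusted p of 0.0790, for Nup93, and DESeq2 called 13, all higher (10.3%). When GC and length trends were removed as well, edgeR with the block called Ndc1, Nup155, Nup62 and Nup93 (1.35% of genes called).

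In Medium against All, 5 genes were higher in Medium within both numbers (25.0%), 10 were lower (24.9%) and 15 differed in sign between the numbers, with a median of 0.02. Leaving out 1 library put that median at -0.31 (without Medium 1), 0.21 (without Medium 2), 0.31 (without All 1) or -0.28 (without All 2). No gene passed edgeR's test (0%), and without the block no member had an unadjusted p under 0.05 in edgeR (0.790% of all tested genes higher and 0.840% lower). With the replicate block, edgeR gave Nupl1, Nup107 and Nup188 lower in Medium at an unadjusted p under 0.05 (2.94% of all tested genes) and no member higher (2.32%). In Small against All 15 genes were higher within both numbers (26.7%) and 6 lower (31.3%), with a median of 0.21 (0.18 and 0.23). The median was -0.12 without Small 1, 0.43 without Small 2, 0.47 without All 1 and -0.08 without All 2. Here too no gene passed edgeR's test (0%), while Nup210 and Pom121 (1.65%) were higher and Tpr (2.32%) lower in Small at an unadjusted p under 0.05. With the replicate block, edgeR gave 4 members higher (Nup210, Pom121, Nup205 and Rae1; 5.96% of all tested genes) and Tpr lower (5.56%) at an unadjusted p under 0.05. DESeq2 with the block called Nup210, Pom121 and Tpr, against 2.30% of all tested genes. The 3 comparisons with All share its libraries, and so do those that share Large, Medium or Small.

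Members were also higher in libraries numbered 1 than in those numbered 2, in every group. The median difference, number 1 minus number 2, was 0.34 in Large, 0.47 in Medium, 0.55 in Small and 0.50 in All, against -0.01 to 0.01 over all tested genes. For 20 of 30 members number 1 was higher in all 4 groups, which held for 23.2% of all tested genes. Nup210 was higher in number 2 in Large, Small and All, and Tpr was in Small and All.

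The summed level of 30 G1/S phase genes was 11025 and 9621 CPM in Large, 7469 and 4477 CPM in Medium, 7922 and 4542 CPM in Small, and 7721 and 4013 CPM in All, although all cells had been sorted in G0/1. All 30 were higher in Large than in Medium and than in Small within both numbers (32.9% of all tested genes in each comparison). Their medians were 0.75 and 0.83, and their median between Medium and Small was 0.00. The sum of 24 G2/M genes was 4535 and 3009 CPM in Large, 2762 and 1161 CPM in Medium, 3258 and 1182 CPM in Small, and 3638 and 674 CPM in All. Within both numbers 22 of the 24 were higher in Large than in Medium and 23 than in Small (32.9% of all tested genes in each). Their medians were 0.90 and 0.85, and -0.20 in Medium against Small. Markers of granulocytes and monocytes summed to 47227 and 23960 CPM in Large, 25418 and 8848 CPM in Medium, 45929 and 13250 CPM in Small, and 58005 and 3798 CPM in All, with none of the 16 genes at 0 in any library. Like the nuclear pore sum they were lowest in Medium among the size gates and higher in number 1, but unlike it they were highest in All 1. Erythroid markers summed to between 2018 and 5046 CPM, and B cell markers reached 4066 CPM in Large 2 against 213 to 1211 CPM elsewhere. T and NK cell markers ranged from 71.3 to 977 CPM, macrophage and dendritic markers from 74.6 to 204 CPM, and mast cell, basophil and eosinophil markers from 34.8 to 1757 CPM. Their part in the differences was not tested.

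Lists of genes that work with the pore had medians between 0.15 and 0.44 in Large against Medium, beside 0.65 for the nuclear pore genes. The 23 karyopherins, the carriers that take cargo through the pore, had medians of 0.29 in Large against Medium and 0.15 in Large against Small. In each comparison 15 were higher in Large within both numbers (32.9% of all tested genes in each). Against Medium 2 were lower (33.4% of all tested genes), and against Small 6 were lower (30.9%). None passed edgeR's test. Ipo7, an importin, had 107 and 76.2 CPM in Large and 42.7 and 55.3 CPM in Small (log2 0.90, SE 0.37), and Xpo6, the exporter of actin, had 127 and 128 CPM in Large and 156 and 183 CPM in Small (-0.41, SE 0.18). The 8 genes of the Ran cycle, which gives transport its direction, had medians of 0.44 and 0.47. Within both numbers 6 were higher in Large than in Small (32.9% of all tested genes) and 1 was lower (30.9%). Ranbp1, a Ran-binding cofactor, had 568 and 434 CPM in Large and 398 and 214 CPM in Small (0.71, SE 0.39), without overlap, and Ranbp10 had 38.8 and 25.8 CPM in Large and 41.1 and 38.8 CPM in Small (-0.31, SE 0.28).

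Of 20 tested mRNA export genes, 15 were higher in Large than in Small within both numbers (32.9% of all tested genes) and 2 lower (30.9%), with a median of 0.23. Thoc2, the scaffold of the THO complex, had 40.8 and 37.9 CPM in Large, 59.4 and 37.9 CPM in Medium, 17.3 and 18.3 CPM in Small, and 38.8 and 66.1 CPM in All, with Small below all others (Large against Small 1.15, SE 0.35; edgeR unadjusted p = 0.0132). Mcm3ap, whose product GANP is the scaffold of the TREX-2 complex at the pore basket, was lower in Large by CPM, with 80.8 and 71.0 CPM against 96.9 and 101 CPM in Small (-0.39, SE 0.24). With GC and length trends removed its difference was 0.15 within number 1 and -0.21 within number 2, in place of -0.26 and -0.51. Of 15 lamina and envelope genes 9 were higher and 4 lower in Large than in Small within both numbers (32.9% and 30.9% of all tested genes). Their median was 0.20. Banf1 had 406 and 292 CPM in Large and 288 and 147 CPM in Small, and Sun1 had 94.4 and 74.2 CPM in Large and 135 and 89.9 CPM in Small. Of the 10 tested pore partners outside the selection 5 were higher and 2 lower within both numbers (32.9% and 30.9% of all tested genes), with a median of 0.20. Among them Ahctf1 had 126 and 84.7 CPM in Large, 114 and 102 CPM in Medium, 85.1 and 98.1 CPM in Small, and 113 and 89.5 CPM in All, with overlapping groups. The spindle checkpoint gene Mad2l1 had 283 and 191 CPM in Large and 175 and 79.4 CPM in Small (0.90, SE 0.69), and Tor1aip1 had 56.3 and 60.7 CPM in Large and 71.1 and 62.9 CPM in Small (-0.19, SE 0.23). None of these genes passed edgeR's test at an adjusted p of 0.05, where 0% of all genes did.

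**Figure D4:**
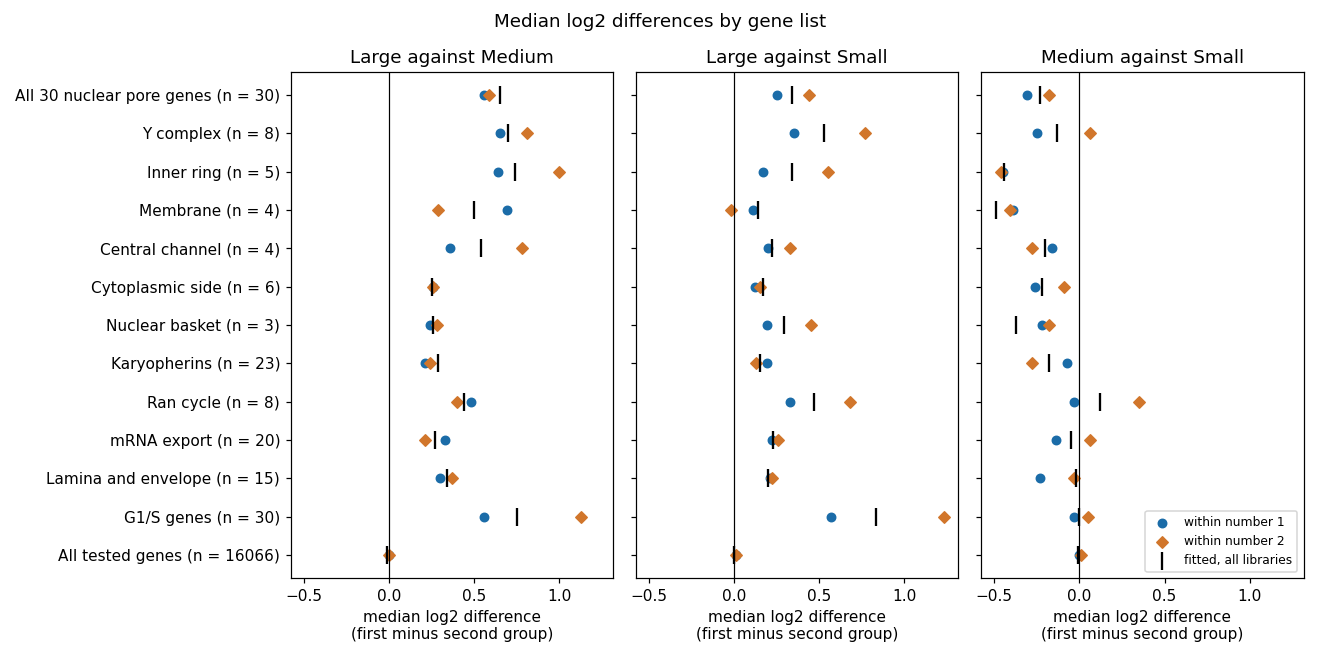
Median log2 differences of the nuclear pore genes, their 6 structural groups, related gene lists and all 16066 tested genes in Large against Medium, Large against Small and Medium against Small; circles are medians within number 1, diamonds within number 2, vertical bars the fit over all libraries. The listed Y complex genes have medians of 0.70 and 0.53 in the comparisons of Large with Medium and with Small, and all tested genes lie at or near 0.

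Upstream sequences were available from RefSeq (GRCm38.p6, the assembly of mm10) for 25 of the 30 genes. The 250 bases before the start of each were searched on both strands for short motifs. The promoters set beside them were not limited to protein-coding or tested genes, as the members were, so the shares compare unlike sets. The letters GCATGCGC, from the motif of NRF1, a regulator of mitochondrial genes, occurred before 3 of the 25 genes (12%), Nup107, Nup50 and Nup62, and in 2.33% of 27025 promoters; in the 3 genes matches on both strands overlap. The ETS factor letters CCGGAAGT occurred before 4 genes (16%; 2.94% of all promoters), the SP factor letters GGGCGG before 15 (60%; 33% of all promoters), and the YY1 letters AAGATGGCG before Nup50 and Nup188 (8%; 0.599% of all promoters). The NF-Y letters CCAAT were found before 10 (40%; 34.3% of all promoters) and the E-box CACGTG before 4 (16%; 6.01%). Of the E2F letters TTTCCCGC, TTTGGCGC and TTTCGCGC, the first named occurred before Nup210 and none of them before another of the 25 (4%; 1.59% of all promoters). The 150 bases next to the start are shown for the 3 genes with the NRF1 letters, and for Tpr and Nup210, whose levels set Small apart in opposite directions. Capitals mark the motif letters on either strand.
Nup107, chr10:117792706-117792855, minus strand: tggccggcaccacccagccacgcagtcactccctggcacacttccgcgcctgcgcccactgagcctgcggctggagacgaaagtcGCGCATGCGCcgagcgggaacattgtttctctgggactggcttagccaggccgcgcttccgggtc
Nup50, chr15:84923278-84923427, plus strand: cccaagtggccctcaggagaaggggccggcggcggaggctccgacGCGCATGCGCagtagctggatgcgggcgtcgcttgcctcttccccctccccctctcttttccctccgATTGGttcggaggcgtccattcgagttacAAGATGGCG
Nup62, chr7:44815938-44816087, plus strand: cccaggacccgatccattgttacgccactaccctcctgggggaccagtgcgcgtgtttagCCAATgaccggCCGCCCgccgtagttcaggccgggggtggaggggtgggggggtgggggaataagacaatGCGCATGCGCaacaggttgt
Tpr, chr1:150392688-150392837, plus strand: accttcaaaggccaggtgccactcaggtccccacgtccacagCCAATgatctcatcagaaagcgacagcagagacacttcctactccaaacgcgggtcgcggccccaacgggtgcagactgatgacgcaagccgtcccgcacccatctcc
Nup210, chr6:91116827-91116976, minus strand: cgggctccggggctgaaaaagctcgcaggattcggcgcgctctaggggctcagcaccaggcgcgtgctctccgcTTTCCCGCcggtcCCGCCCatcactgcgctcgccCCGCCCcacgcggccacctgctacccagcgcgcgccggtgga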

How the data were processed

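Gene expression was measured in 8 HSC libraries, grouped by the size named in the sample titles. Per the submitters' processing notes, STAR 2.5.3a, RSEM 1.3.0, SAMtools 1.3 and the build mm10 were used. The annotation release and the use of strand were not given in the sources used here. Both tables were deposited by the authors and hold estimated counts per gene, already whole numbers and not scaled between libraries, and log2(TPM + 1) values, whose TPM add up to 1000000 per library. Of 50686 IDs, 50376 matched GENCODE M21 (GRCm38); no more than 0.131% of the counts in any library fell on the remaining 310.

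Counts were TMM-scaled and filtered with filterByExpr at a minimum count of 10, which left 16066 genes. Differences were tested in R 4.3.3 with the quasi-likelihood method of edgeR 4.0.16, robust, in a single model of the 8 libraries whose sole term was group (4 residual degrees of freedom). The p-values, each two-sided, were adjusted by Benjamini-Hochberg over these genes, with a threshold of 0.05. Differences within a number are of log2 CPM with a prior count of 2. Log2 differences are the group named first minus the second. An exact test of 2 against 2 libraries cannot give a p under 0.333.

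The labels give the numbers 1 and 2 but not what they share. Deviations of same-numbered libraries from their group means correlated at 0.358 to 0.439 in all 6 pairs of groups, so the number was taken to pair libraries, from the data and not from the design, and was fitted as a block (3 residual degrees of freedom). Further alternatives were RLE scaling, no filter, a minimum count of 50, DESeq2 1.42.0, limma 3.58.1, removal of GC content and length trends, and leaving out each library. GC content and length were those of each gene's longest annotated transcript, which can differ from the length RSEM used. A count of 3 equals 0.178 to 0.219 CPM over the libraries, before TMM scaling. Such a floor covers counting error only, since amplified reads are not independent molecules.

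The members, the gene lists and the motifs were chosen with earlier results of these data known. Values in every library are given for the members with the 6 smallest unadjusted p in each comparison and for the member with the highest mean TPM in each structural group. Of each related gene list, the gene with the smallest p in each direction in Large against Small is named. Ahctf1 is added because it is a pore component outside the selection. The fit was tested on simulated counts before use. These held no difference between replicate numbers, so the simulation does not cover that feature of the data.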

Additional observations from a re-analysis of the deposited data

How the results depend on the processing

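At an adjusted p of 0.05, which holds for all counts of calls below, edgeR called 0 members and 0 genes in each comparison both with and without the replicate block on the filtered, TMM-scaled counts. With GC and length trends removed it called 0 without the block, and the block added the calls given below. Over all genes in Large against Small, Large against Medium, Medium against Small, Large against All, Medium against All and Small against All, in that order, DESeq2 called 10, 2, 42, 8, 6 and 20 genes, and edgeR without a filter 55, 58, 73, 121, 48 and 69. The fit without a filter tested 28543 genes in place of 16066. DESeq2 with the block called 1416, 922, 518, 1651, 12 and 369. Limma-trend on log2(TPM + 1) called 1 gene in each of Large against Small, Medium and All. With GC and length trends removed and the block, edgeR called 23, 11 and 217 genes in Large against Small, Medium and All, and limma-voom with the block called 205 in Large against Small and 117 in Large against All.

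Of the members, edgeR without a filter called 1 (Tpr) in Large against Small, Medium against Small and Small against All, DESeq2 called 1 (Tpr) in Medium against Small and Small against All, and DESeq2 with the block called 7, 13, 3, 13 and 3 in Large against Small, Large against Medium, Medium against Small, Large against All and Small against All. Limma-voom with the block called 1 in Large against Small (Nup107) and 1 in Large against All (Nup93), and edgeR with the block and trends removed called 4 in Large against All. The cause of these changes was not tested. The block fits of DESeq2 and both limma-voom fits were added after the data were seen.

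The median of the members in Large against Medium was 0.60 with a minimum count of 50, which drops Nup210l, 0.42 on log2(TPM + 1), 0.72 with trends removed, 0.70 with trends removed and the block, and 0.62 with limma-voom with and without the block. In Small against All it was 0.26 without a filter. In Medium against Small 5 members were higher within both numbers on log2(TPM + 1), in place of 3. Scaling moved the median of all genes as far as -0.14 within a number on log2(TPM + 1) (Large against Small and Large against All) and 0.16 with trends removed (Large against Medium). In Large against Small and Large against Medium the members' medians within each number were above those of all genes under each scaling.

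Nup210 in Large against Small was 0.02 with trends removed, with and without the block, and Nup214 in Small against All was -0.15 on log2(TPM + 1). Leaving out 1 library gave Rae1 in Large against Small -0.26 to 0.19 (0.09 without Large replicate 2) and Nup35 in Medium against All -1.01 to 0.35. It moved the members' median between 0.09 and 0.69 in Large against Small, 0.38 and 0.78 in Large against Medium, -0.57 and 0.12 in Medium against Small, 0.26 and 0.81 in Large against All, -0.31 and 0.31 in Medium against All, and -0.12 and 0.47 in Small against All; the lone library was assumed to vary like the other groups. The adjusted counts were 0 in each of these fits. The fits that left out a library had group as their sole term, so the replicate numbers were then uneven between groups. Nup210l had at most 24 reads in a library, and its differences are limited by that depth.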
